A study of Mus musculus with 9 samples.

Results

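The receptors, ligands, nuclear effector and target genes of Notch signalling were followed in mouse embryonic fibroblasts (MEFs) under hyperosmotic stress. The 10 genes were taken by symbol from the deposited expression table, which lists 35275 genes, and comprise the receptors Notch1, Notch2 and Notch3, the ligands Jag1 and Jag2, the DNA-binding effector Rbpj, and the target genes Hes1, Hey1, Heyl and Nrarp. Every symbol matched a single row. MEFs, fibroblasts cultured from embryos and here of the C57Bl/6 strain, were either left in iso-osmolar medium (300 mOsm, no added sucrose) or treated for 3 h with 200 mM sucrose (500 mOsm) or 300 mM sucrose (600 mOsm), and 3 libraries of poly-A selected RNA were sequenced for each medium, 9 in all. The study describes the sequenced cells as wild type and the labels name no transgene. No source states that the 3 libraries of a medium came from separate cultures, so p-values measure only the spread between these libraries. The comparison between 500 and 600 mOsm asks how a moderate stress, which the study treats as adaptive, differs from a severe one.

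Notch signalling passes between touching cells. A Jagged or Delta-like ligand on one cell pulls on a Notch receptor on its neighbour, the receptor is cleaved by an Adam protease and then by gamma-secretase, and the freed intracellular domain enters the nucleus, where it joins Rbpj on DNA and replaces corepressors with Mastermind-like coactivators. The Hes and Hey repressors and the feedback inhibitor Nrarp are the best known genes switched on in this way, and Hes1 is also known to respond to other signals. The pathway is known for its part in cell fate decisions in the embryo.

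The 9 libraries held 21716042 to 26740832 counts on genes. A count of 3 corresponded to 0.112 to 0.138 CPM (counts scaled to library size), a floor that covers counting error only. Of 8 fibroblast markers, none was at 0 in any medium, and their summed level, carried mainly by Col1a1, Col1a2, Vim and Fn1, was 20400 to 21200 CPM in iso-osmolar medium, 20300 to 21200 at 500 mOsm and 23100 to 23900 at 600 mOsm. Among these markers Col3a1 fell 2.41-fold at 500 mOsm and 1.57-fold at 600 mOsm (edgeR adjusted p = 4.21e-07 and 1.24e-04), and Pdgfra fell 1.62-fold and 1.60-fold (3.21e-05 and 4.72e-05). Pdgfrb averaged 266, 299 and 325 CPM in the 3 media in turn and was called higher at 500 mOsm (edgeR adjusted p = 0.006922). Col1a1, Col1a2, Vim, Thy1 and Fn1 were not called at 500 mOsm. Col1a1 and Col1a2 averaged 11250 and 3756 CPM at 600 mOsm, against 8943 and 3127 CPM in iso-osmolar medium. The number of genes with any count was 16452 to 16871 per iso-osmolar library, 18920 to 19222 at 500 mOsm and 17846 to 18031 at 600 mOsm. Fewer cells that express a gene and less RNA per cell cannot be told apart in such bulk libraries.

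Promoter sequences are shown for 4 members whose counts differed between media. The letters bound by the pathway's own factors can thus be read beside the values. For Notch3 and Nrarp these counts are no support for a rise, for the reason given below. RefSeq (GRCm38.p6) held a start site for 7 of the 10 members, which are Notch1, Notch2, Notch3, Jag1, Jag2, Rbpj and Nrarp, and the 250 bases before each start were searched on both strands for TGGGAA, the core bound by Rbpj, for CACNAG, the N box bound by Hes proteins, for CACGTG, the E box bound by Hey and Hes proteins, and for GGAAA, the core bound by Rel-family factors such as those of the osmotic stress response. A TGGGAA followed by A also contains GGAAA, so these matches can overlap. Capitals mark every match, read on either strand, and stretches that annotated exons cover are left out.
Notch2, chr3:98013288-98013526, plus strand: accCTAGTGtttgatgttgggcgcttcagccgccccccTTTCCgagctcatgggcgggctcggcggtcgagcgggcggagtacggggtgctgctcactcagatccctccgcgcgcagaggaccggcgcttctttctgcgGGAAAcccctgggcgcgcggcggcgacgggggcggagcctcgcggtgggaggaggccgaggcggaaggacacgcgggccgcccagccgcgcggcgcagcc
Notch3, chr17:32166891-32167140, minus strand: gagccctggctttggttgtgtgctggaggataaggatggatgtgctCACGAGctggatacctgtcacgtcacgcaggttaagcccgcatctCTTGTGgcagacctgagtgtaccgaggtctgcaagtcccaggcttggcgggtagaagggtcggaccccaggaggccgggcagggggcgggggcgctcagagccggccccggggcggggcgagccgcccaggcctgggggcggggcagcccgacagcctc
Rbpj, chr5:53590096-53590213, plus strand: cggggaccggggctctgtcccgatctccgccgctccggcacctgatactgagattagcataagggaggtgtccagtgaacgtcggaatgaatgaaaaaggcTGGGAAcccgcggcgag
Nrarp, chr2:25180508-25180757, plus strand: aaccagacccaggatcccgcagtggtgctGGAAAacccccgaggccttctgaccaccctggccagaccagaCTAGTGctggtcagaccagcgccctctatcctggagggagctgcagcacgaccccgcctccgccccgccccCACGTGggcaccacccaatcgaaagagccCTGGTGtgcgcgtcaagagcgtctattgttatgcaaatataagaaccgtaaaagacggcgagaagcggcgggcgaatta

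TGGGAA was found before Rbpj alone among the members with a start site. The full 250 bases before its more upstream start had 2 matches, 149 and 65 bases before the start, of which the stretch shown holds the former, and the same motif occurs in 21.6% of 32841 promoter windows of that length. The Nrarp window had an E box 108 bases before its start, a motif in 6.02% of all windows, and N boxes at 179 and 79 bases. N boxes, in 36.7% of all windows, also stood in the windows of Notch1 (1), Notch2 (1) and Notch3 (2). GGAAA was found in 55.6% of all windows and in those of Notch2, Jag1, Rbpj and Nrarp, and Jag2 had none of these motifs. The starts of Rbpj, Notch1 and Jag1 used here lie inside the spans listed for these genes, so their windows stand before internal starts, and annotated exons cover 132 of the 250 bases of the more upstream Rbpj window. A match only describes these letters.

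Per unit of gene length, iso-osmolar MEFs had Notch2 as their main receptor. FPKM, which divides each count by gene length and library total, gave the order Notch2 (42.8 ± 1.62, SD, n = 3), Rbpj (14.5 ± 1.18), Hes1 (4.53 ± 0.587), Jag1 (1.87 ± 0.0577), Hey1 (0.385 ± 0.124), Notch1 (0.316 ± 0.0196), Nrarp (0.136 ± 0.0261), Notch3 (0.0538 ± 0.0302), Jag2 (0.0204 ± 0.0353) and Heyl (0). The libraries of Hey1 and Notch1 overlapped, as did those of Notch3 and Jag2 and those of Jag2 and Heyl, so these neighbours cannot be ordered. Notch2 made up 98.7% to 98.8% of the summed FPKM of Notch1 to Notch4 in iso-osmolar libraries, 97.4% to 97.9% at 500 mOsm and 98.0% to 98.3% at 600 mOsm. Jag1 made up 93.9% to 100% of the summed FPKM of the Jagged and Delta-like ligands in iso-osmolar medium 73.7% to 75.0% at 500 mOsm and 78.3% to 88.7% at 600 mOsm. Hes1 made up 39.8% to 47.5% of the summed Hes and Hey FPKM in iso-osmolar medium, 76.5% to 83.2% at 500 mOsm and 34.3% to 37.5% at 600 mOsm, with Hes6 as the other large part.

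**Figure D1:**
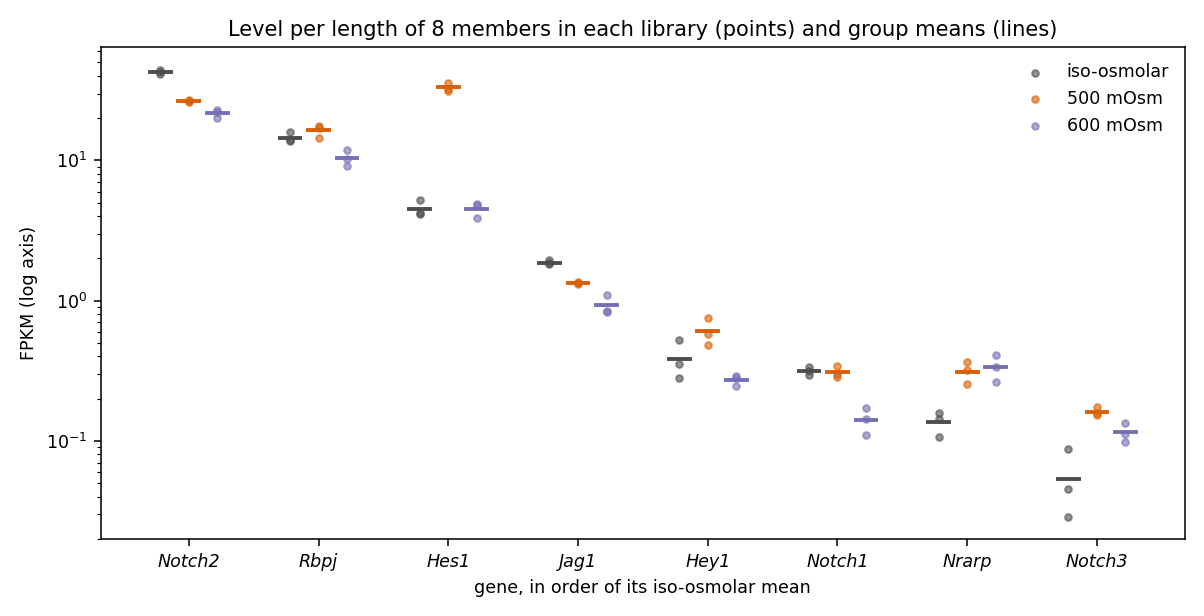
FPKM of 8 members on a log axis, with 1 point per library and a line at the mean of the 3 libraries of each medium; Jag2 and Heyl are left out because some of their libraries are at 0. Hes1 moved from the third place in iso-osmolar medium to the first at 500 mOsm (33.2 ± 2.40 FPKM against 26.5 ± 0.333 for Notch2) and was back in the third place at 600 mOsm (4.52 ± 0.564).

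Counts were compared between media by edgeR's quasi-likelihood test over the 13082 genes that passed its filter on low counts, and a gene was taken to change where its Benjamini-Hochberg adjusted p over all of them was under 0.05. The filter kept 8 members and left out Jag2 and Heyl. Notch3 and Nrarp passed it only through the stressed libraries, so their calls as higher in the stress media are no support for a rise. At 500 mOsm against iso-osmolar medium 5 members were called (Hes1, Notch3 and Nrarp higher, Notch2 and Jag1 lower), where 28.0% of all genes tested were called, 13.2% higher and 14.8% lower. At 600 mOsm against iso-osmolar medium 6 changed (Notch3 and Nrarp higher, Notch1, Notch2, Jag1 and Rbpj lower), where 35.1% of all genes were called, 15.1% higher and the rest lower. Between 600 and 500 mOsm 6 members were called (Notch1, Notch2, Jag1, Rbpj, Hes1 and Hey1), all of them lower at 600 mOsm, where 29.1% of all genes were called, 11.9% higher and 17.2% lower. Over the 8 members the median log2 fold change was 0.42, -0.46 and -0.57 in these comparisons in turn, beside 0.01, 0.01 and 0.01 over all genes tested. The libraries of the compared media did not overlap for 5, 6 and 7 of the 8 members, beside 40.9%, 48.4% and 41.5% of all genes tested. Notch3 and Nrarp are part of these medians and overlap counts, which are therefore no support for a rise over the members either. Both comparisons with iso-osmolar medium use the same 3 iso-osmolar libraries.

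**Figure D2:**
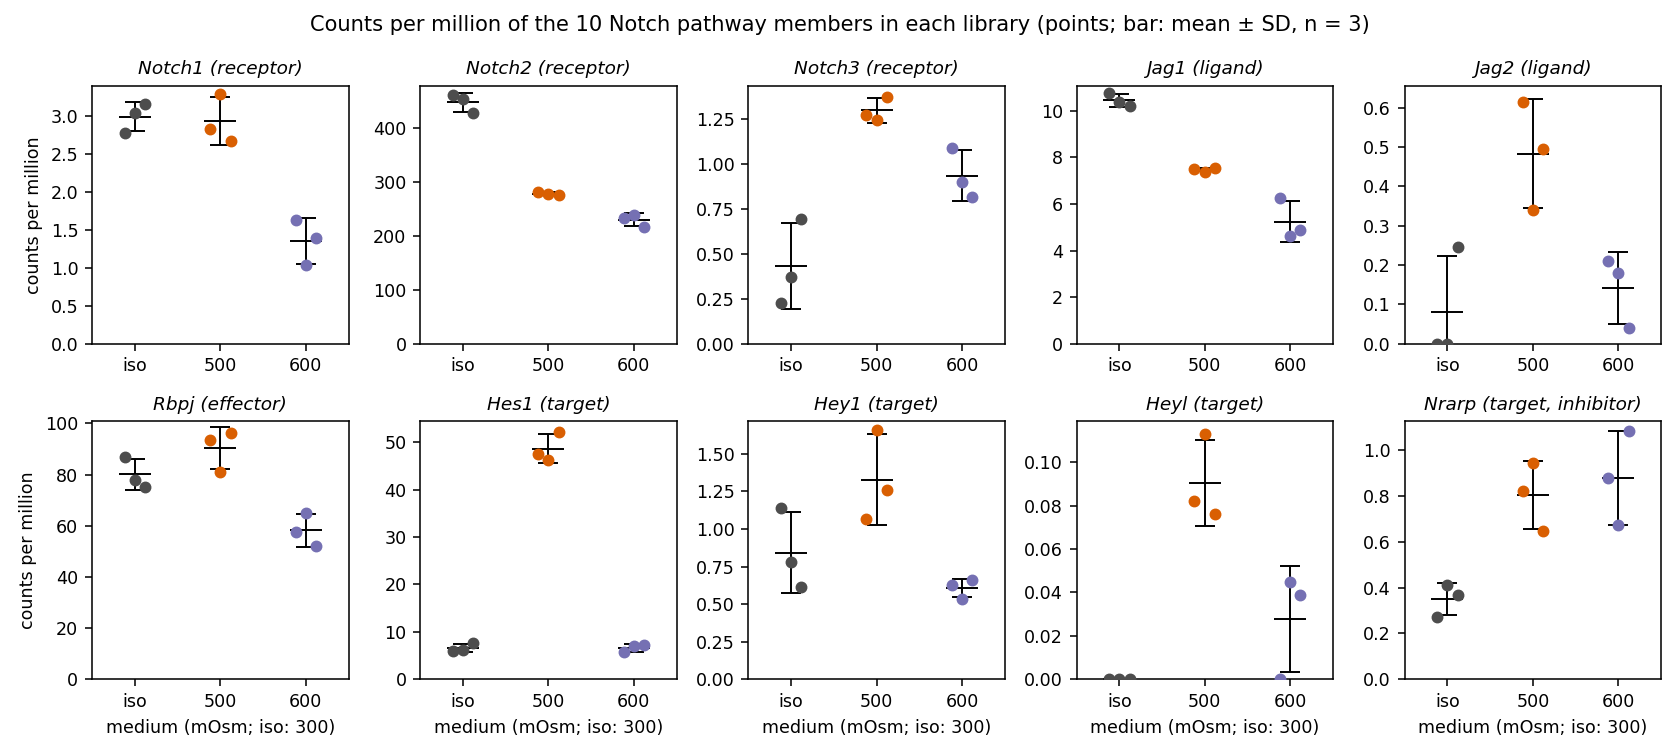
CPM of each of the 10 members (1 panel each, linear axes from 0) in the 9 libraries, by medium, with the mean and SD of 3 libraries. Notch2 and Jag1 step down from iso-osmolar medium to 500 and 600 mOsm, Hes1 is high at 500 mOsm alone, and Notch1 and Rbpj are low at 600 mOsm alone.

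Among the receptors, Notch2, the main receptor of these cells (mm10 chr3:98013538-98150367), fell in both stress media. Its level was 461, 454 and 428 CPM in the iso-osmolar libraries, 282, 278 and 275 CPM at 500 mOsm and 234, 239 and 217 CPM at 600 mOsm. No library of one medium reached the range of another. Notch2 fell by 0.69 ± 0.0485 (SE) on the log2 scale at 500 mOsm, 1.61-fold (edgeR adjusted p = 3.91e-07), and by 0.96 ± 0.0488, 1.95-fold, at 600 mOsm (adjusted p = 3.44e-08). The further step from 500 to 600 mOsm was -0.28 ± 0.0486 (edgeR adjusted p = 9.88e-04). That step turned to 0.08 (edgeR adjusted p = 0.3278) after correction of the libraries for GC content and length, and Notch2 has the longest listed gene length of the members, 10506 bases. The same correction moved the median log2 fold change over all genes tested from 0.006 to 0.090 in that comparison.

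Notch1, the best studied receptor of the family (chr2:26457903-26516663), was scarce, with 23 to 87 counts per library. It stood at 2.78, 3.03 and 3.15 CPM in iso-osmolar medium, at 2.83, 3.28 and 2.67 CPM at 500 mOsm and at 1.63, 1.03 and 1.39 CPM at 600 mOsm. The iso-osmolar and 500 mOsm libraries overlapped, and the 600 mOsm libraries lay below both. The log2 fold change at 500 mOsm was -0.03, with a 95% interval of -0.387 to 0.327 (edgeR adjusted p = 0.92). At 600 mOsm Notch1 fell 2.20-fold against iso-osmolar medium (log2 fold change -1.14 ± 0.185, edgeR adjusted p = 4.87e-04) and 2.15-fold against 500 mOsm (-1.11 ± 0.184, edgeR adjusted p = 6.30e-04). Exons of Notch1 overlap those of 2 genes on the opposite strand, 0610009E02Rik (1068 bases) and Gm13568 (414 bases), which had at most 14 and 2 counts in a library.

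Notch3, a receptor known from smooth muscle and pericytes (chr17:32120820-32166880), was scarce and had more counts in both stress media. It had 5, 9 and 17 counts in the iso-osmolar libraries, 31, 33 and 36 at 500 mOsm and 26, 20 and 21 at 600 mOsm. The groups did not overlap in either comparison with iso-osmolar medium, although iso-osmolar replicate 3 had more counts than the other two together. Notch3 was 2.95-fold higher at 500 mOsm (log2 fold change 1.56 ± 0.319, edgeR adjusted p = 0.002453) and 2.12-fold higher at 600 mOsm (1.08 ± 0.339, edgeR adjusted p = 0.02591). It passed the filter only through the stressed libraries, so these calls are no support for a rise. The call at 600 mOsm was lost without iso-osmolar replicate 1 (edgeR adjusted p = 0.09552), without iso-osmolar replicate 2 (0.08251) and without 600 mOsm replicate 1 (0.09133). It was also lost in limma on log2 FPKM with 1 or 0.1 added (limma adjusted p = 0.1330 and 0.05288) and at an adjusted p under 0.01, in 6 of 20 alternatives in all. Between 600 and 500 mOsm the log2 fold change of -0.48, with an interval of -1.08 to 0.127, did not pass the test (edgeR adjusted p = 0.2273). Up to 3 counts per library were listed for Gm17276, which shares 488 exonic bases with Notch3 on the opposite strand.

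Low-level genes were often called higher at 500 mOsm. Of the 2700 tested genes that averaged under 1 on the log2 CPM scale, 22.9% were called higher and 7.63% lower at 500 mOsm against iso-osmolar medium. At 600 mOsm 11.3% were called higher and 8.93% lower. Over all genes tested, 13.2% and 15.1% were called higher in these comparisons. Notch3, Nrarp and the ligand Dll1 were among the 2700 and passed the filter only through the stressed libraries. The shares of low-level genes called higher therefore depend in part on the filter. Of 5 endothelial markers the summed level was 0.773 to 0.909 CPM in iso-osmolar medium, 11.9 to 13.6 CPM at 500 mOsm and 2.11 to 3.21 CPM at 600 mOsm, and Kdr and Emcn were at 0 in iso-osmolar medium. Most of this sum in the stress media was Pecam1 (0.279, 11.1 and 1.68 CPM on average in the 3 media in turn), while Cdh5 averaged 0.554 and 0.568 CPM in iso-osmolar medium and at 500 mOsm. Tek had 1, 0 and 0 counts in iso-osmolar medium and 12, 12 and 13 at 500 mOsm. At 500 mOsm Kdr had 11, 6 and 10 counts and Emcn 0, 0 and 1. Of 5 epithelial markers the summed level was 0.0813 to 0.414, 3.90 to 4.85 and 0.301 to 0.539 CPM, with Epcam and Cldn4 at 0 in iso-osmolar medium and Cdh1 as the main part at 500 mOsm (3.47 CPM). Of 6 mural cell markers, the cells best known for Notch3, it was 55.5 to 63.2, 26.3 to 28.3 and 29.2 to 32.5 CPM, nearly all of it Cspg4, and Abcc9 was at 0 in iso-osmolar medium and at 500 mOsm. Unlike Cspg4, Myh11 was higher in the stress media, with 0, 3 and 2 counts in iso-osmolar medium, 13, 13 and 10 at 500 mOsm and 5, 3 and 6 at 600 mOsm. Rgs5, Des and Kcnj8 had at most 5 counts in a library. Of 4 immune markers the summed level was 12.2 to 12.8, 15.9 to 17.1 and 11.3 to 11.9 CPM, with Cd3e at 0 in iso-osmolar medium. The part of these cell types in the higher counts of Notch3, Nrarp and the low ligands was not tested.

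Of the ligands, Jag1, a membrane-bound activator of Notch receptors (chr2:137081456-137116644), fell stepwise with osmolarity. It stood at 10.8, 10.4 and 10.2 CPM in iso-osmolar medium, at 7.50, 7.39 and 7.55 CPM at 500 mOsm and at 6.24, 4.61 and 4.87 CPM at 600 mOsm. The 3 media did not overlap. Jag1 fell 1.40-fold at 500 mOsm (log2 fold change -0.48 ± 0.112, edgeR adjusted p = 0.005871) and 1.99-fold at 600 mOsm (-0.99 ± 0.117, edgeR adjusted p = 3.72e-05). It was also lower at 600 than at 500 mOsm (-0.51 ± 0.119, edgeR adjusted p = 0.006112), a call that was lost after correction for GC content and length (-0.30, edgeR adjusted p = 0.05295).

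Jag2, the other Jagged ligand (chr12:112908590-112929495), was left out by the filter. It had 0, 0 and 6 counts in iso-osmolar medium, 15, 9 and 13 at 500 mOsm and 5, 4 and 1 at 600 mOsm. The 500 mOsm libraries lay above the other 6 on the CPM scale, and 2 iso-osmolar libraries held no read, which allows up to 3 counts. Pooled over libraries, 37 counts at 500 mOsm against 6 in iso-osmolar medium gave a ratio of 5.65, scaled to total counts, with an exact 95% counting interval of 2.36 to 16.4. In a fit without the filter Jag2 was called higher at 500 mOsm against iso-osmolar medium (edgeR adjusted p = 0.002193) and lower at 600 than at 500 mOsm (adjusted p = 0.02551). Among the 10337 genes that the filter left out and that had at least 1 count, 15.4% had 500 mOsm libraries all above the iso-osmolar ones and 2.98% had them all below.

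Rbpj, through which all Notch receptors act on DNA (chr5:53555779-53657445), fell at 600 mOsm but did not pass the test at 500 mOsm. It stood at 87.0, 78.1 and 75.2 CPM in iso-osmolar medium, at 93.7, 81.2 and 96.3 CPM at 500 mOsm and at 57.7, 64.9 and 52.1 CPM at 600 mOsm. The first 2 media overlapped, and every 600 mOsm library was below them. The log2 fold change at 500 mOsm was 0.17, with an interval of -0.015 to 0.364 (edgeR adjusted p = 0.1661), and passed the test only after correction for GC content and length (0.22, edgeR adjusted p = 0.01528, or 0.03326 with the replicate block). At 600 mOsm Rbpj fell 1.38-fold against iso-osmolar medium (-0.46 ± 0.0887, edgeR adjusted p = 0.001617) and 1.55-fold against 500 mOsm (-0.63 ± 0.0884, edgeR adjusted p = 1.63e-04). Rbpj shares a 1441-base stretch at 99.7% identity with the pseudogene Rbpj-ps3, for which at most 28 counts were listed in a library. How reads of that stretch were counted is not given, so the extent to which Rbpj counts are uncertain is unknown.

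Of the target genes, Hes1 (chr16:30064384-30067796) gave the largest change among the 8 members tested in both comparisons in which it was called. Hes1 encodes a short-lived repressor that also represses its own gene. It stood at 6.06, 6.23 and 7.57 CPM in iso-osmolar medium, at 47.6, 46.3 and 52.1 CPM at 500 mOsm and at 5.73, 7.07 and 7.27 CPM at 600 mOsm. Every 500 mOsm library was several times above the other 6, which overlapped each other. Hes1 rose 7.33-fold at 500 mOsm (log2 fold change 2.87 ± 0.109, edgeR adjusted p = 1.29e-09) and was 7.26-fold lower at 600 than at 500 mOsm (-2.86 ± 0.109, edgeR adjusted p = 1.48e-09). By size of change it was number 328 of 13082 genes in the first comparison and number 207 in the second. Between 600 mOsm and iso-osmolar medium the log2 fold change was 0.02, with an interval of -0.247 to 0.277 (edgeR adjusted p = 0.9349). The calls of Hes1 held in all 21 alternative analyses, over which the log2 fold change at 500 mOsm lay between 2.63 and 2.98.

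The genes most like Hes1 across the 9 libraries, among 10381 other genes averaging 1 or more on the log2 CPM scale, were Nuak1 (Pearson r of log2 CPM 0.997), Slc38a2 (0.995) and Dusp1 (0.993). Nuak1 encodes a kinase of the AMPK family, Slc38a2 an amino acid transporter known for its rise under hyperosmotic stress, and Dusp1 a phosphatase that turns off MAP kinases. Their means in iso-osmolar medium, at 500 and at 600 mOsm were 53.9, 104 and 55.7 CPM for Nuak1, 146, 876 and 144 CPM for Slc38a2 and 50.7, 583 and 52.7 CPM for Dusp1. The 9 points of each correlation fall into 3 media, so a high r mainly says that these genes were also high at 500 mOsm alone.

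Hey1, a repressor related to Hes1 (chr3:8663362-8667039), had 12 to 44 counts per library. It stood at 1.14, 0.778 and 0.613 CPM in iso-osmolar medium, at 1.07, 1.66 and 1.26 CPM at 500 mOsm and at 0.628, 0.537 and 0.657 CPM at 600 mOsm. The stress media overlapped with iso-osmolar medium but not with each other. Hey1 was lower at 600 than at 500 mOsm, 2.18-fold (log2 fold change -1.12 ± 0.285, edgeR adjusted p = 0.01030). Against iso-osmolar medium neither 500 mOsm (0.67, interval 0.081 to 1.26, edgeR adjusted p = 0.08709) nor 600 mOsm (-0.45, interval -1.13 to 0.222, edgeR adjusted p = 0.2842) passed the test, though at 500 mOsm it did so without iso-osmolar replicate 1 (0.93, edgeR adjusted p = 0.03884).

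Heyl, the third Hey gene (chr4:123233556-123249875), was at 0 in all 3 iso-osmolar libraries and had 2, 3 and 2 counts at 500 mOsm and 0, 1 and 1 at 600 mOsm. Every library was at or under the floor of 3 counts. Over the group, 7 counts at 500 mOsm were at least 2.14-fold higher than the 3 counts that an empty iso-osmolar group allows, and the fit without the filter did not call it in any comparison (edgeR adjusted p = 0.09552 at 500 mOsm).

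Nrarp, a target gene whose product binds the Notch intracellular domain and Rbpj and inhibits them (chr2:25180758-25183339), had more counts at both intensities. It had 6, 10 and 9 counts in iso-osmolar medium, 20, 25 and 17 at 500 mOsm and 21, 15 and 28 at 600 mOsm. All 6 stressed libraries were above the iso-osmolar ones, and the stress media overlapped each other. Nrarp was 2.26-fold higher at 500 mOsm (log2 fold change 1.18 ± 0.322, edgeR adjusted p = 0.01495) and 2.49-fold higher at 600 mOsm (1.31 ± 0.319, edgeR adjusted p = 0.006918). It passed the filter only through the stressed libraries, so these calls are no support for a rise. Between 600 and 500 mOsm the log2 fold change was 0.14, with an interval of -0.450 to 0.725 (edgeR adjusted p = 0.7502). The call at 500 mOsm was lost without iso-osmolar replicate 1 (edgeR adjusted p = 0.06139), without 500 mOsm replicate 2 (0.06460) and in DESeq2 (0.05345). Nrarp overlaps Gm38287 over 2051 exonic bases on the opposite strand, and without a stated strand setting their reads cannot be told apart.

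Because Nrarp was the called member with the largest change at 600 mOsm against iso-osmolar medium, the genes most like it were also listed. They were Tinagl1 (r = 0.996), Sema3f (0.995) and Cacna1a (0.990), with group means of 444, 564 and 574 CPM, 69.7, 83.6 and 86.0 CPM and 104, 164 and 164 CPM in iso-osmolar medium, at 500 and at 600 mOsm. Tinagl1 encodes a matrix protein, Sema3f a secreted guidance factor and Cacna1a a calcium channel subunit.

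**Figure D3:**
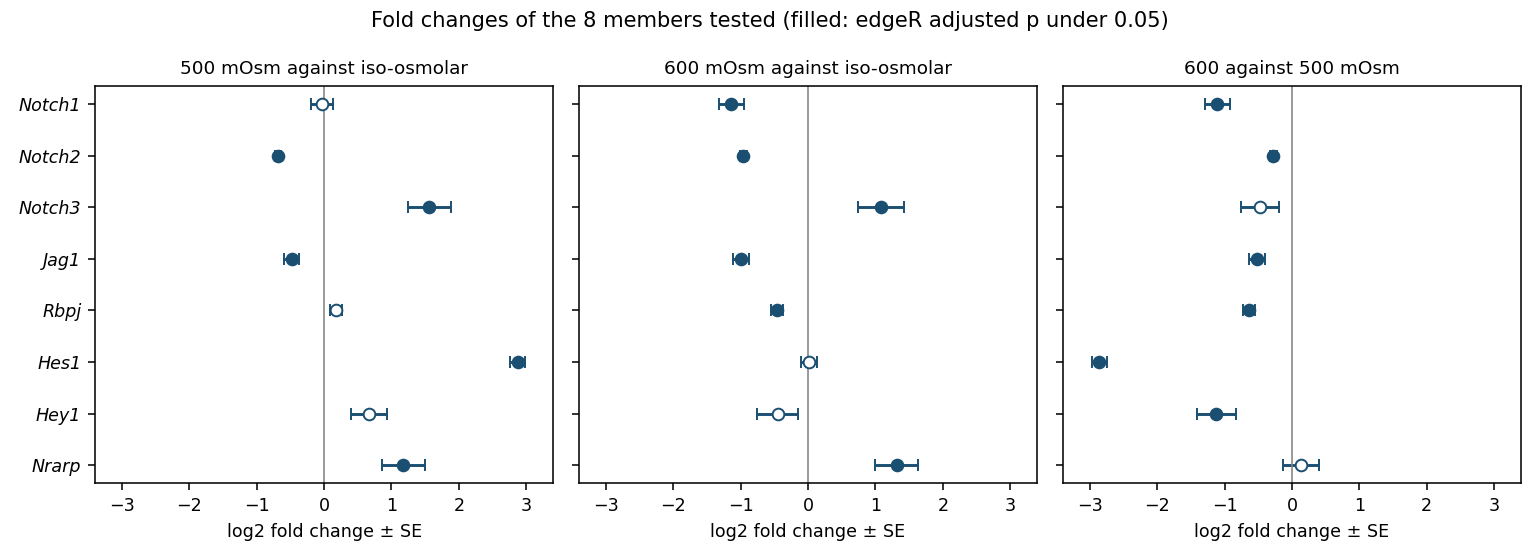
Log2 fold change ± SE of the 8 members tested in the 3 comparisons, with filled points where the edgeR adjusted p was under 0.05. Hes1 is near 2.87 at 500 mOsm, near 0 at 600 mOsm against iso-osmolar medium and near -2.86 between the stress media, while Notch2 and Jag1 lie below 0 in all 3 panels.

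Other genes of the pathway were taken from a list of 59 receptors, ligands, target genes, processing enzymes and cofactors, 48 of which passed the filter. At 500 mOsm against iso-osmolar medium 6 rose and 6 fell, at 600 mOsm 7 rose and 13 fell, and between 600 and 500 mOsm 5 were higher and 12 lower at 600 mOsm, a split that became 11 higher and 11 lower after correction for GC content and length (10 and 11 with the replicate block). Their median log2 fold changes were 0.09, 0.01 and -0.12. The share called was 25.0%, 41.7% and 35.4%, beside the 28.0%, 35.1% and 29.1% of all genes given above. At 500 mOsm 7 were called without iso-osmolar replicate 1, and after correction for GC content and length 3 rose and 11 fell. That correction also moved the median log2 fold change over all genes tested, to -0.062 at 500 mOsm and to 0.090 between 600 and 500 mOsm.

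Of the other receptors and ligands, Dll1, a Delta-like ligand, appeared in the stressed libraries. It had 0, 0 and 1 counts in iso-osmolar medium, 15, 19 and 26 at 500 mOsm and 13, 10 and 8 at 600 mOsm. It passed the filter only through the stressed libraries, so its calls as higher in both stress media are no support for a rise. The ratio of pooled counts, scaled to total counts, was 55.0 at 500 mOsm, with an exact 95% counting interval of 9.5 to 2210, and 30.0 at 600 mOsm, with an interval of 5.00 to 1220. Dll4 had 0, 0 and 0, then 4, 4 and 5, then 1, 2 and 0 counts, at least 3.97-fold higher at 500 mOsm than the floor of 3 counts over the iso-osmolar group. Dll3 had at most 8 counts in a library, and Dlk1 had none in any. Dlk2, an atypical ligand that lacks the domain by which Delta and Jagged ligands bind Notch, rose 1.21-fold at 500 mOsm (edgeR adjusted p = 0.03235) and 1.46-fold at 600 mOsm (edgeR adjusted p = 4.73e-04). The first of these was lost with the replicate block (edgeR adjusted p = 0.07701), after correction for GC content and length (0.4126) and without iso-osmolar replicates 1 or 3 or 500 mOsm replicates 1 or 2 (0.06698 to 0.1377). Notch4 was not called, with log2 fold changes of 0.13, 0.02 and -0.11 in the 3 comparisons.

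Of the other Hes and Hey genes, Hes6 alone passed the filter. It rose 1.35-fold at 500 mOsm (edgeR adjusted p = 0.02887) and 1.41-fold at 600 mOsm (edgeR adjusted p = 0.01157), from 7.88, 9.38 and 8.34 CPM to 11.5, 13.5 and 9.42 CPM and to 11.2, 11.9 and 13.2 CPM. Hes6 is known to oppose Hes1. The rise at 500 mOsm was lost after correction for GC content and length (edgeR adjusted p = 0.1316) and without iso-osmolar replicates 1 or 3 or 500 mOsm replicates 1 or 2 (0.06501 to 0.1427), and that at 600 mOsm without 600 mOsm replicate 3 (0.05052). Hes2, Hes3, Hes7 and Hey2 had at most 17 counts in a library, and Hes5 had none in any.

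Among the enzymes that act on receptors and ligands, Lfng, the Fringe glycosyltransferase that tunes which ligands a receptor answers to, was low where Hes1 was high. It stood at 24.1, 27.6 and 24.4 CPM in iso-osmolar medium, at 10.0, 10.3 and 7.55 CPM at 500 mOsm and at 28.9, 26.7 and 33.9 CPM at 600 mOsm. The 500 mOsm libraries lay below all others. Lfng fell 2.73-fold at 500 mOsm (log2 fold change -1.45 ± 0.1253, edgeR adjusted p = 2.32e-06) and was 3.21-fold higher at 600 than at 500 mOsm (1.68 ± 0.1247, edgeR adjusted p = 8.19e-07), with no call at 600 mOsm against iso-osmolar medium. Fbxw7, the ubiquitin ligase subunit that marks the Notch intracellular domain for destruction, fell 2.26-fold at 500 mOsm (-1.18 ± 0.142, edgeR adjusted p = 3.85e-05) and 1.64-fold at 600 mOsm (-0.71 ± 0.138, edgeR adjusted p = 0.001637). Of 9 genes of receptor cleavage tested, Furin, which cuts new receptors into their mature form, rose 1.17-fold at 500 mOsm (edgeR adjusted p = 0.03447) and Adam10, which sheds the ligand-bound receptor, fell 1.39-fold at 600 mOsm (edgeR adjusted p = 0.002760). The other 7 were not called in either comparison with iso-osmolar medium, where 28.0% and 35.1% of all genes tested were called. The call of Furin was lost at an adjusted p under 0.01, without iso-osmolar replicate 1 and with the replicate block. Neurl1b, a ubiquitin ligase of ligand endocytosis, rose 1.59-fold at 600 mOsm (edgeR adjusted p = 7.36e-05). Mib2, another such ligase, and Numbl, a relative of the Notch inhibitor Numb, rose 1.27-fold and 1.25-fold at 500 mOsm (edgeR adjusted p = 0.02429 and 0.01902), and both calls were lost after correction for GC content and length (0.09259 and 0.1605). The call of Mib2 was also lost with the replicate block (edgeR adjusted p = 0.05847) and without iso-osmolar replicate 1 or 500 mOsm replicates 1 or 2 (0.09014 to 0.09358). That of Numbl was lost without iso-osmolar replicates 1 or 3 or 500 mOsm replicates 1 or 2 (0.05668 to 0.09425).

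Of 8 nuclear coactivators tested 3 fell at 600 mOsm (Ep300, Crebbp and Maml1) and Kat2a rose. In that comparison 35.1% of all genes tested were called, 15.1% higher and the rest lower. Of 12 corepressors 4 fell at 500 mOsm, where 14.8% of all genes tested were called lower (1931 of 13082). At 600 mOsm 6 fell, where 2617 of the 13082 genes were called lower. Spen, a large corepressor that binds Rbpj when Notch is silent, stood at 169, 179 and 175 CPM in iso-osmolar medium, at 156, 148 and 136 CPM at 500 mOsm and at 43.9, 45.0 and 42.1 CPM at 600 mOsm. The 600 mOsm libraries lay below all others. Spen fell 3.99-fold at 600 mOsm against iso-osmolar medium (log2 fold change -1.995 ± 0.0597, edgeR adjusted p = 3.80e-10). The histone acetyltransferases Crebbp and Ep300 fell 1.82-fold and 1.73-fold at 600 mOsm (edgeR adjusted p = 4.28e-06 and 5.93e-07). Ctbp2 fell 1.32-fold and 1.54-fold (edgeR adjusted p = 6.86e-04 and 2.63e-05).

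**Figure D4:**
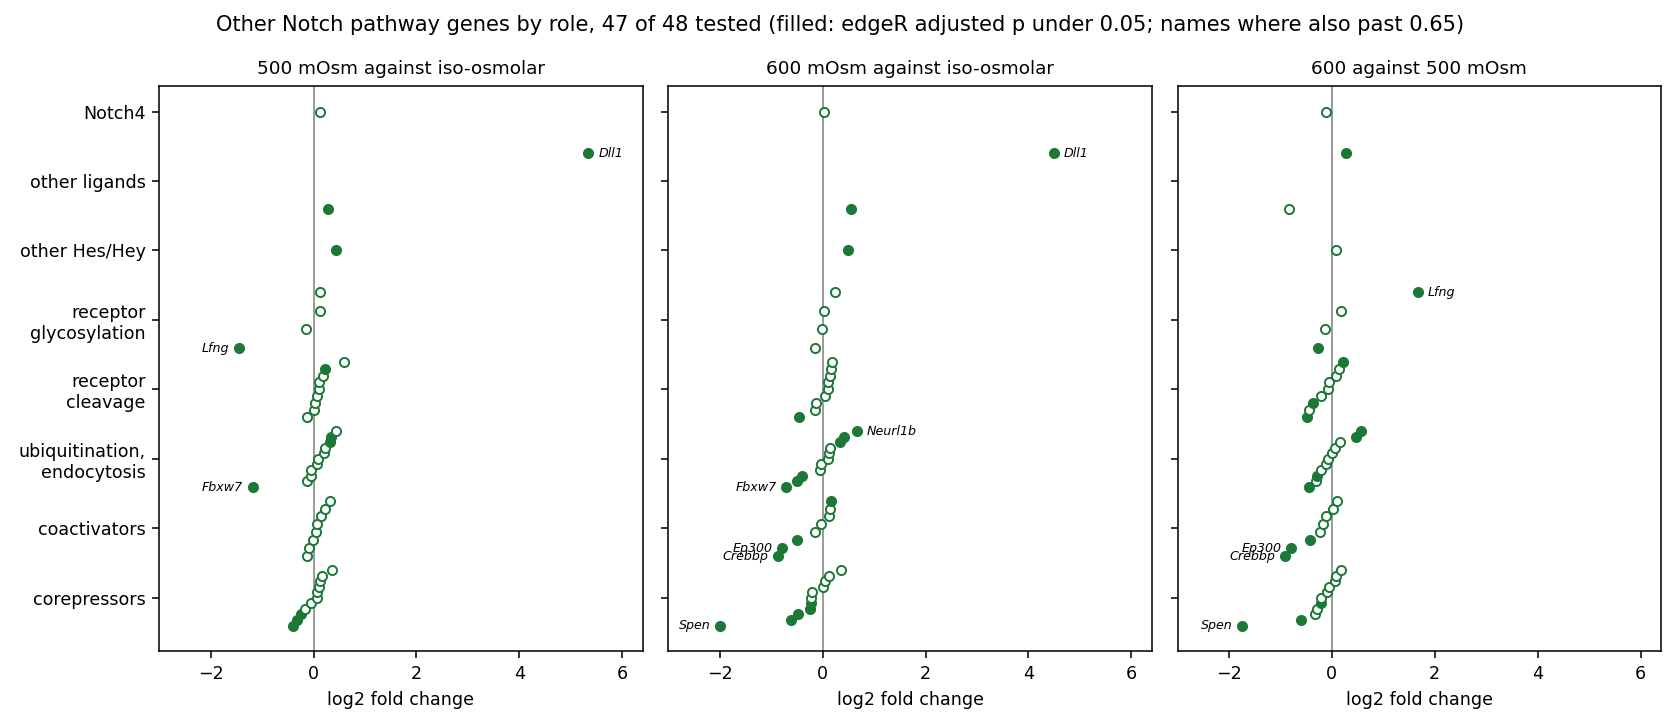
Log2 fold changes of 47 of the 48 other pathway genes tested, by role, in the 3 comparisons, with filled points where the edgeR adjusted p was under 0.05 and names where the change also passed 0.65. Lfng is at -1.45 at 500 mOsm and at 1.68 between 600 and 500 mOsm, and Spen is at -1.995 at 600 mOsm; the value of Dll1 rests on 1 iso-osmolar count.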

How the data were processed

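The authors deposited 1 table of 35275 genes with raw counts of reads per gene and FPKM for each of the 9 libraries. Paired-end reads of poly-A RNA were aligned to mm10, with STAR and CASAVA 1.8 named in the submitters' processing notes. The counting tool and strand setting are not given in the sources used here. FPKM as deposited equals the count divided by the listed gene length in kilobases and by the library's total count. The table's comparison columns hold the authors' fold changes, p-values and adjusted p-values between media and were not used.

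Counts were normalized by TMM in edgeR 4.0.16 (R 4.3.3), genes were filtered by filterByExpr, and the quasi-likelihood test was run on all 9 libraries in one fit, with medium as the factor and Benjamini-Hochberg adjustment over 13082 genes. CPM used TMM-scaled library sizes, except summed marker levels and pooled ratios, which used plain totals. Scripts were tested on simulated data. Totals per library were 21716042 to 26740832, with a common biological coefficient of variation of 0.0756.

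The genes named are all 10 members, every receptor, ligand and Hes or Hey gene of the pathway list, up to 4 called genes per direction and comparison from the rest, and the 3 genes most like the most changed member. Furin, Adam10, Maml1 and Kat2a were named after their values were seen. One gene of the pathway list is counted but not reported here by name. The members and lists were chosen with earlier results of these data known.

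Alternatives were RLE factors or library size alone, no filter, at least 10 counts in every library, DESeq2 1.42.0, only the libraries compared, the replicate number as a block, limma 3.58.1 on log2 FPKM with 1 or 0.1 added, an adjusted p under 0.01 and the omission of single libraries. Correcting for GC content and length, alone and with the block, was chosen after the data were seen. Libraries of 1 medium all differed beyond sampling noise. Shared sequence was searched with blastn 2.17.0.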

Additional observations from a re-analysis of the deposited data

How the results depend on the processing

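Over 21 alternatives the fold changes of the 8 members tested gave 498 values, of which 480 kept their side of the threshold, 13 were no longer past it, 3 newly passed it and 2 called values turned. Of the 480, 12 values called in neither analysis changed sign near 0: Hes1 at 600 mOsm against iso-osmolar medium in 9 alternatives (down to -0.0518), Notch1 at 500 mOsm in 2 (up to 0.0332) and Nrarp between 600 and 500 mOsm in 1 (-0.0455). The 2 that turned were Notch2 between 600 and 500 mOsm, at 0.0776 after correction for GC content and length and 0.0758 with that correction and the replicate block (edgeR adjusted p = 0.3278 and 0.3857). The cause was not tested. The members called at 500 mOsm were 5, or 3 with at least 10 counts in every library, a filter that removes Notch3 and Nrarp, and 5 to 6 with each library left out. The pathway genes called at 500 mOsm fell from 12 to 7 at an adjusted p under 0.01 and lay between 7 (without iso-osmolar replicate 1) and 14 with a library left out. Between 600 and 500 mOsm they fell from 17 to 11 at an adjusted p under 0.01. Over all genes an adjusted p under 0.01 left 2846 of 4594 calls at 600 mOsm and 2352 of 3810 between the stress media. The correction for GC content and length changed the split of calls over all genes from 1728 higher and 1931 lower to 1604 and 3554 at 500 mOsm, and from 1560 higher and 2250 lower to 3618 and 1786 between 600 and 500 mOsm. With it the median log2 fold change over all genes moved from 0.013 to -0.062 and from 0.006 to 0.090 in these comparisons. Changes under this correction therefore include a shift common to all genes.

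Same-numbered libraries did not deviate together (mean correlation of deviations -0.154 over 9 pairs and 11437 genes, beside 0.078 over the 18 other pairs, and 0 libraries matched best with their own number). No pairing by number was seen, though these few correlations cannot exclude it. With the number as a block, the members called were 5, 6 and 6, the pathway genes 9, 19 and 13, and all genes 3111, 3798 and 3089 in the 3 comparisons. Depth limits Heyl, Jag2, Dll4 and, in iso-osmolar medium, Dll1, Notch3 and Nrarp, which had at most 17 counts in a library. Every Heyl library and every iso-osmolar library of Dll1 lay at or under the floor of 3 counts.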
